A study of Mus musculus with 26 samples.

Results

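C-to-U editing was described for 4 genes of bone marrow-derived macrophages of the mouse, App, Aplp2, Itm2b and Sppl2a, chosen by gene symbol from the deposited lists of edited sites. These genes held 25 of the 526 sites that stood in either list. The list made from bulk RNA gave 18 of its 410 sites to them, the list made from single cells gave 18 of its 171 sites, and 11 of these sites stood in both lists. App carried 18 of the 25 sites, Itm2b 3, Aplp2 2 and Sppl2a 2.

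App encodes the amyloid precursor protein, a membrane protein from which secretases release soluble fragments and the amyloid-beta peptide. Aplp2 encodes a close relative of it that is cut in the same way. Itm2b encodes BRI2, a membrane protein that furin and ADAM10 trim outside the membrane and that signal peptide peptidase-like proteases then cut within it. Sppl2a encodes such a protease, which lies in lysosomes and late endosomes and also cuts the membrane stubs of CD74 and TNF. APOBEC1 is the cytidine deaminase that turns C into U in transcripts, mostly in AU-rich stretches of 3′ untranslated regions (3′ UTRs).

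The single-cell libraries came from 24 wild-type macrophages captured 1 per chamber on a microfluidic chip, whose cDNA was amplified by PCR. The bulk RNA came from 1 Apobec1 -/- library and 1 wild-type library, all on the C57BL/6J strain. Mice were 6 to 8 weeks old, and progenitors matured for 7 to 9 days in M-CSF at 20 ng per ml. The knockout library entered only as a filter, since a bulk site was kept where the C-to-T change was read in wild-type and not in knockout RNA, so no rate in knockout cells can be given here. There were no bulk replicates, and all cells belonged to a single condition. The authors state that the single cells came from the same mouse, so spreads over cells do not cover differences between mice.

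The bulk list gave the reads at each site and the share of them edited (the editing rate). The single-cell list gave a rate per cell without the reads behind it, and it held sites edited in at least 3 cells. Its columns carry no cell names, so cells are called by their column number in the file, which has no other meaning. The cell type could not be tested against expression, since the files list edited sites alone: of 8 macrophage markers only Itgam (Cd11b) had a site, and none of 18 markers of other cell types did. Among the single cells, 135 to 164 of the 171 sites were covered, and 20.9% to 52.2% of the covered sites were edited.

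All 25 sites lay in the 3′ UTR, within the last coding exon, of the transcripts App-201, Aplp2-201, Itm2b-201 and Sppl2a-201. These genes lie on the minus strand of GRCm38 (mm10), with the GENCODE vM21 annotation. Sites are named below by the gene and the distance in nucleotides from the stop codon. The 18 App sites ran from App +73 to App +851 in exon 16 (chr16:84954480-84955258), over 778 of the 888 nucleotides of the 3′ UTR of App-201. The shorter annotated transcript App-202 ends before the last 3 of them, App +785, App +818 and App +851. The longer App-206 runs on past all of them, to chr16:84949685. Itm2b-204 has 0 of the 3 Itm2b sites in its 3′ UTR. The Aplp2 sites, +430 and +525, lay in exon 17 on chromosome 9 (chr9:31150346-31150441), and those of Itm2b, +393, +587 and +768, in exon 6 on chromosome 14 (chr14:73362290-73362665). The Sppl2a sites, +2830 and +3378, lay far along a 3′ UTR of 3821 nucleotides in exon 15 on chromosome 2 (chr2:126890834-126891382).

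The sites on which the results turn are shown as 30 nucleotides of transcript-sense RefSeq sequence of GRCm38, minus strand, written as DNA from 5′ to 3′. A capital C marks a listed edited base, after 10 nucleotides of upstream sequence. The set holds the App sites with the highest bulk rates, the App pair that lies 2 nucleotides apart, the App site with the fullest match to the mooring sequence, and the sites of the other genes that are described in most detail.
App +382, chr16:84954930-84954959: ccggaaaaaaCtcctacttgaaatatgctt
App +463, chr16:84954849-84954878: cctacgtattCttttcctgatcactatgca
App +598 and +600, chr16:84954714-84954743: taagaggataCaCattgatttctttgtgcc
App +818, chr16:84954494-84954523: gatgattgtaCagaatcattgcttatgcca
Aplp2 +430, chr9:31150422-31150451: gctggttttaCtattatttgttttcaatgt
Itm2b +393, chr14:73362646-73362675: accacagtgaCttgcttgtagatgctagcc
Itm2b +587, chr14:73362452-73362481: taagaagcaaCtcatgttactaatttgtat
Sppl2a +2830, chr2:126891363-126891392: ttgtggctgaCtttaattcgcaattacact
Sppl2a +3378, chr2:126890815-126890844: attacaaataCtataaacagcgttcctatt

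The base before the edited C was A at 20 of the 25 sites (80%), against 85% of all 526 sites and 24.7% of 30272 other C bases within 250 nucleotides of a bulk site on the same strand. The remaining 5 sites had T there, as App +463 shows. The base 3′ of the C was A or T at 24 of the 25 sites (96%), against 87.8% of all sites and 72.1% of the other C bases. In the App 3′ UTR, 14 of 47 C bases that follow an A were listed as edited (29.8%), and 4 of the 130 other C bases were (3.08%). In the longer 3′ UTR of Sppl2a, 2 of 201 C bases after an A were listed (0.995%), and in those of Aplp2 and Itm2b it was 2 of 70 and 2 of 34. A listed base also had to be covered and pass the filters, so these shares count listed bases and not bases that can be edited.

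The mooring sequence is the stretch downstream of the edited C in Apob RNA that guides the editing complex. Its 10-position consensus was searched on the transcript strand, starting 1 to 12 nucleotides after the C. App +463, which has T and not A before the C, matched at all 10 positions, starting 7 nucleotides downstream (the run tgatcactat in the sequence above). Such a full match was found at 13 of the 526 sites (2.47%) and at 0.122% of the other C bases. At least 8 positions matched at 8 of the 25 sites (32%), at 27.4% of all sites and at 15.2% of the other C bases. No other site of the 4 genes matched at all positions. These matches describe the letters only.

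In bulk RNA the highest rate among the 4 genes was that of Sppl2a +3378, where 17 of 42 reads were edited (40.5%, exact Clopper-Pearson 95% interval 25.6% to 56.7%). It ranked 5th of the 410 sites. The other Sppl2a site, +2830, had 2 of 17 reads edited (11.8%, 1.46% to 36.4%), and their intervals overlapped. Intervals here cover counting error only, since the libraries had no molecular identifiers and several reads may come from the same molecule. A bulk rate is a share of reads, in which fewer edited cells and less editing per cell cannot be told apart. Pooled over both sites, 19 of 59 Sppl2a reads were edited (32.2%, 20.6% to 45.6%), a value that rests on the site with more reads, since the other alone gave 11.8%.

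App was edited at 116 of 738 reads summed over its 12 bulk sites (15.7%, 13.2% to 18.5%), and a read that spans several sites counts at each, which makes the interval of the pooled rate too narrow. The mean over sites was 16% ± 6.39 (SD over the 12 sites), beside 14.2% ± 8.17 over all 410 sites. App +382 had 19 of 66 reads edited (28.8%, 18.3% to 41.3%) and App +818 had 15 of 52 (28.8%, 17.1% to 43.1%). These stood 16th and 15th among all bulk sites. The other 10 App sites lay between 9.33% at App +552 (7 of 75 reads) and 16.4% at App +463 (10 of 61 reads). App +598 and App +600, which mostly share reads, gave 14.5% (9 of 62) and 15% (9 of 60). Coverage was 35 to 76 reads per App site, against a median of 30 over the list. The fewest reads lay at App +851, nearest the end of App-201.

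Itm2b and Aplp2 were edited at 11.1% to 17.5% at each of their bulk sites. Itm2b +393 was the 8th best covered site of the bulk list, with 12 of 95 reads edited (12.6%, 6.7% to 21%), and Itm2b +768 had 7 of 63 (11.1%, 4.59% to 21.6%). Aplp2 +430 had 10 of 57 reads edited (17.5%, 8.75% to 29.9%) and Aplp2 +525 had 10 of 74 (13.5%, 6.68% to 23.5%). Pooled rates were 12% for Itm2b (7.4% to 18.1%) and 15.3% for Aplp2 (9.58% to 22.6%). Both intervals overlapped that of App.

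To ask whether sites of a gene differ in rate, every pair of sites within a gene of the bulk list was compared by a two-sided Fisher's exact test on edited and unedited reads, with Benjamini-Hochberg adjustment over all 318 pairs. Of the 69 pairs in the 4 genes, 0 passed an adjusted p of 0.05, beside 12 of all 318 pairs (3.77%). At an unadjusted p of 0.05 there were 7 of 69 such pairs, 6 of them in App, a share near that of all genes, 30 of 318 pairs (9.43%). The smallest p was 0.00419 (adjusted p = 0.0961, Fisher's exact test), between App +382 and App +552, which lie 170 nucleotides apart. All 6 App pairs set App +382 or App +818 against App +514, App +537 or App +552. The Sppl2a pair gave an exact p of 0.0368 (adjusted p = 0.433) with 17 reads at the lower site, the Aplp2 pair 0.626 and the Itm2b pair 1. The test compares reads within a single library, and 22 of the 69 pairs lie within 100 nucleotides, the length of a read, and can share reads.

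**Figure D1:**
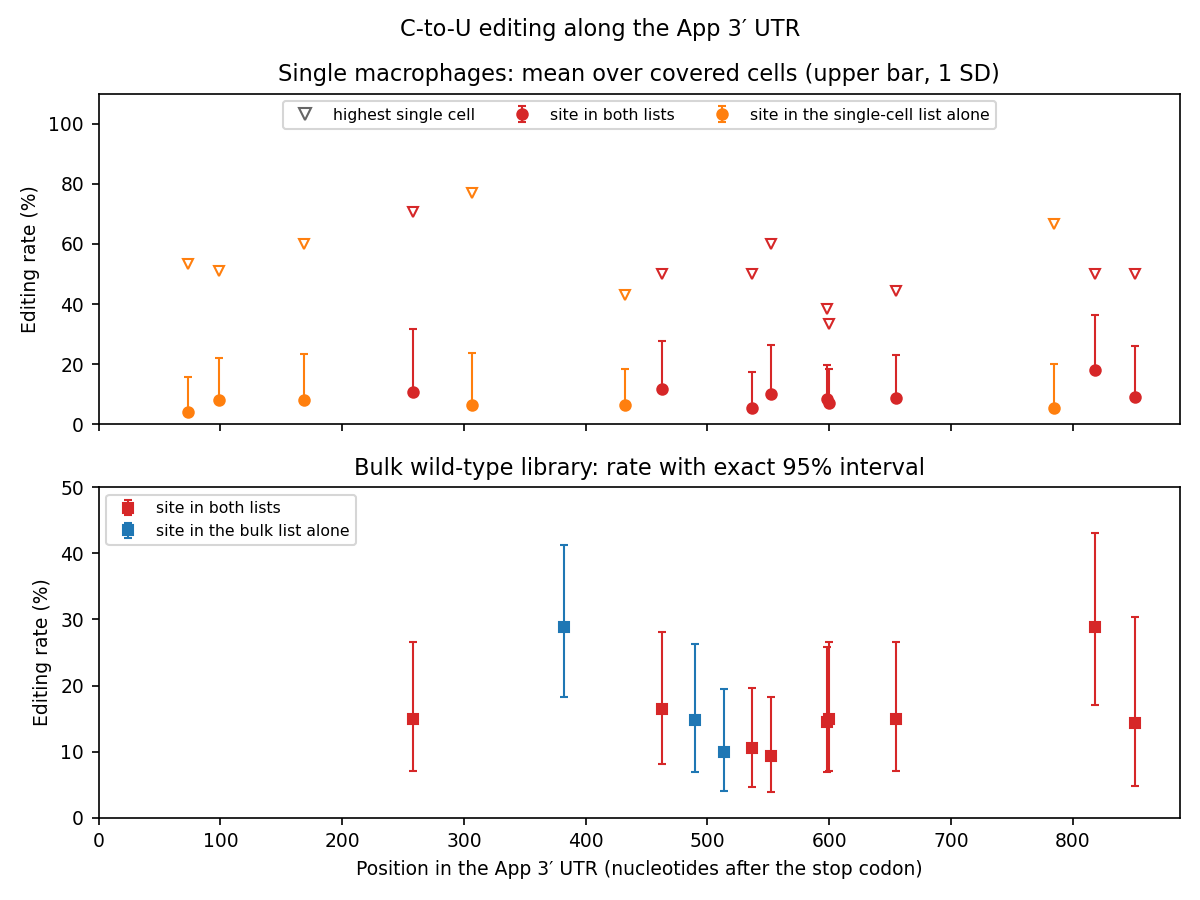
Editing rate at the App sites by distance from the stop codon, with the mean over covered single cells and 1 SD in the upper panel (triangles, highest cell) and the bulk rate with its exact 95% interval in the lower panel. Bulk sites lay between 9.33% and 28.8%, while the highest cell reached 76.9% at App +307, where the mean over cells was 6.46%.

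In single cells, 15 App sites were listed, of which 9 were also bulk sites and 6 were not. App +818 had the highest mean of all sites of the 4 genes, 18% ± 18.3 over 24 covered cells (SD), with a lowest value of 0, a median of 13.8% and a highest of 50%, and 15 cells were edited. App +463 followed at 11.9% ± 15.9, with 13 of 23 covered cells edited, a median of 5.56% and a highest of 50%. At App +258 the mean was 10.7% ± 21.1, but only 7 of 22 covered cells were edited, the 2 highest at 70.6% and 66.7%. The SD exceeded the mean at every listed site of the 4 genes in single cells, with medians over these sites of 15 for the SD and 8.13% for the mean. Over all 171 listed sites the medians were similar, 14.4 and 7.22%, and sites with an SD above the mean were not counted there.

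The 6 App sites of the single-cell list alone were +73, +99, +169, +307, +432 and +785. Their means over cells were 3.96% to 7.99% and 4 to 9 cells were edited at each, against 5.46% to 18% and 6 to 15 cells at the 9 sites in both lists. Of the 5 sites nearest the stop codon, only App +258 was also in the bulk list. The lowest mean was that of App +73, 3.96% ± 11.7, with 19 of 23 covered cells at 0. App +382, among the highest in bulk, was not in the single-cell list, nor were App +490 and App +514. How the single-cell list was filtered beyond the 3 edited cells is not given in the sources used here, and nothing in it sets its own sites against knockout RNA.

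All 18 sites listed in single cells had a covered cell at 0, as did 162 of the 171 sites of the whole list (94.7%). At 8 of them (44.4%) some other cell was above 50%, beside 86 of all 171 sites (50.3%), so the share in the 4 genes was near that of the list. The 8 sites were App +73, +99, +169, +258, +307, +552 and +785 and Itm2b +587. Without the cell in column 22, the count was 4 of 18, beside 80 of 171 (46.8%). A rate of 0 in a cell can rest on few reads, and the depth per cell is unknown, so no interval is given.

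**Figure D2:**
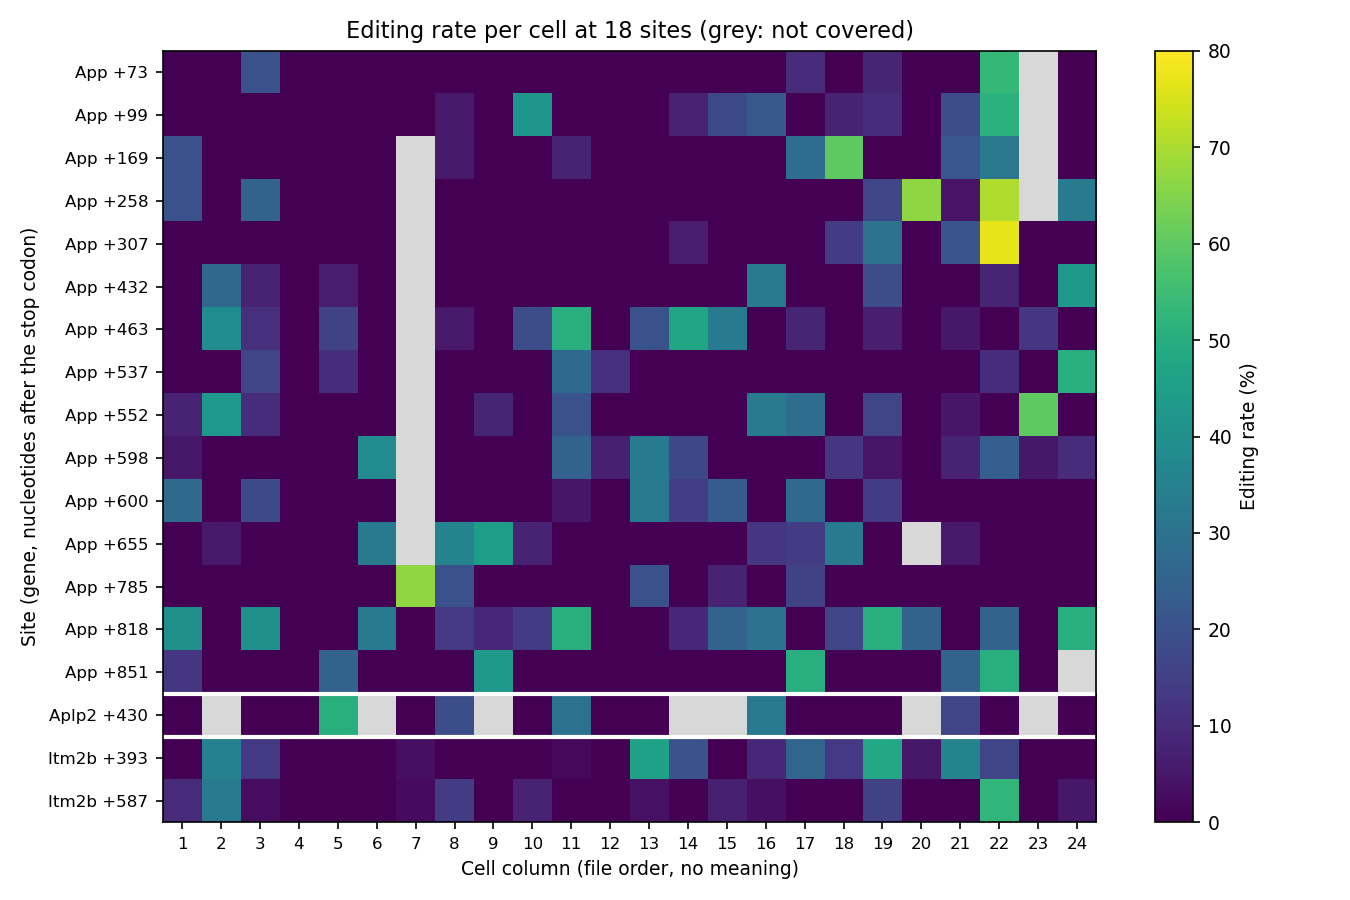
Editing rate in percent at the 18 sites listed in single cells (rows, by distance from the stop codon) in each of the 24 cell columns, with grey where the site was not covered. Column 22 is bright at the App sites nearest the stop codon, and column 4 is at 0 in all rows.

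Averaged over the covered App sites of a cell, the rate was 8.62% ± 5.12 (SD, n = 24 cells), with a lowest value of 0, a median of 7.36% and a highest of 26.7%. At least 1 App site was edited in 23 of the 24 cells, and the number of edited sites ran from 0 to 10 with a median of 5. Of the 344 covered App values 123 were above 0 (35.8%), close to 1283 of 3608 (35.6%) over the whole list.

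The cell in column 22 had the highest mean over the App sites. Its mean was 26.7%, against 13.3% in the next cell, and without it the SD over cells was 3.44, a setting chosen after its values were seen. At the 5 sites nearest the stop codon this cell had 53.2%, 51.1%, 31.7%, 70.6% and 76.9%, a mean of 56.7%, while the other 23 cells had means there from 0 to 16.5% with a median of 2.73%. At the 10 sites farther along its mean was 11.7%, within the range of the other cells (0 to 22.2%), a split of the sites that was also chosen after the values were seen. Among those 10 sites it had 50% at App +851, with no covered cell higher, 25% at App +818 and 23.8% at App +598, and 0 at App +463, where 13 of the 23 covered cells were edited. Its mean over all other listed sites was 12.8%, the highest of the 24 cells. At the 9 App sites in both lists column 22 hardly led, with a mean of 19.9% against 19.7% in column 11. At the 6 App sites of the single-cell list alone column 22 had 36.9%, and the other cells had at most 22.2%. Those 6 sites were not set against knockout RNA in the sources used here.

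Column 4 had 0 at all 15 App sites, at Aplp2 +430 and at both Itm2b sites, all of them covered. The same cell was edited at 34 of the 130 other sites it covered. Coverage was uneven in column 7, where 10 of the 15 App sites were not covered and the mean of 13.3% came from 66.7% at App +785 with 0 at the other 4. Column 23 lacked the 4 App sites nearest the stop codon.

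Itm2b was covered at both of its listed sites in all 24 cells. The mean was 11.4% ± 15.7 at Itm2b +393 (median 2.62%, highest 48%, 13 cells edited) and 6.53% ± 12.4 at Itm2b +587 (median 1.11%, highest 52.6%, 12 cells edited). Edited values at Itm2b +393 began at 1.85%, the lowest nonzero rate of the 18 sites. Of the 48 Itm2b values 25 were above 0 (52.1%), a higher share than the 35.8% of App, with no test of that difference. This share also depends on the reads per cell, which are unknown. In bulk the pooled rate was lower for Itm2b, 12% against 15.7% for App. Over its sites, a cell had a mean of 8.98% ± 11.3 (SD, n = 24), from 0 in 6 cells to 34.6% in column 22 and 34.2% in column 2. In column 22 the high value came from Itm2b +587 at 52.6%, and in column 2 both sites were high, at 35.1% and 33.3%.

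Aplp2 +430 was covered in only 17 cells, of which 5 were edited, at 16.7%, 19.2%, 30%, 33.3% and 50%, and 12 were at 0. The mean was 8.78% ± 15.5 and the median 0. The highest Aplp2 value, in column 5, fell in a cell with 0 at both Itm2b sites and a mean of 3.81% at App. Sppl2a, the highest of the 4 genes in bulk, had no site in the single-cell list.

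**Figure D3:**
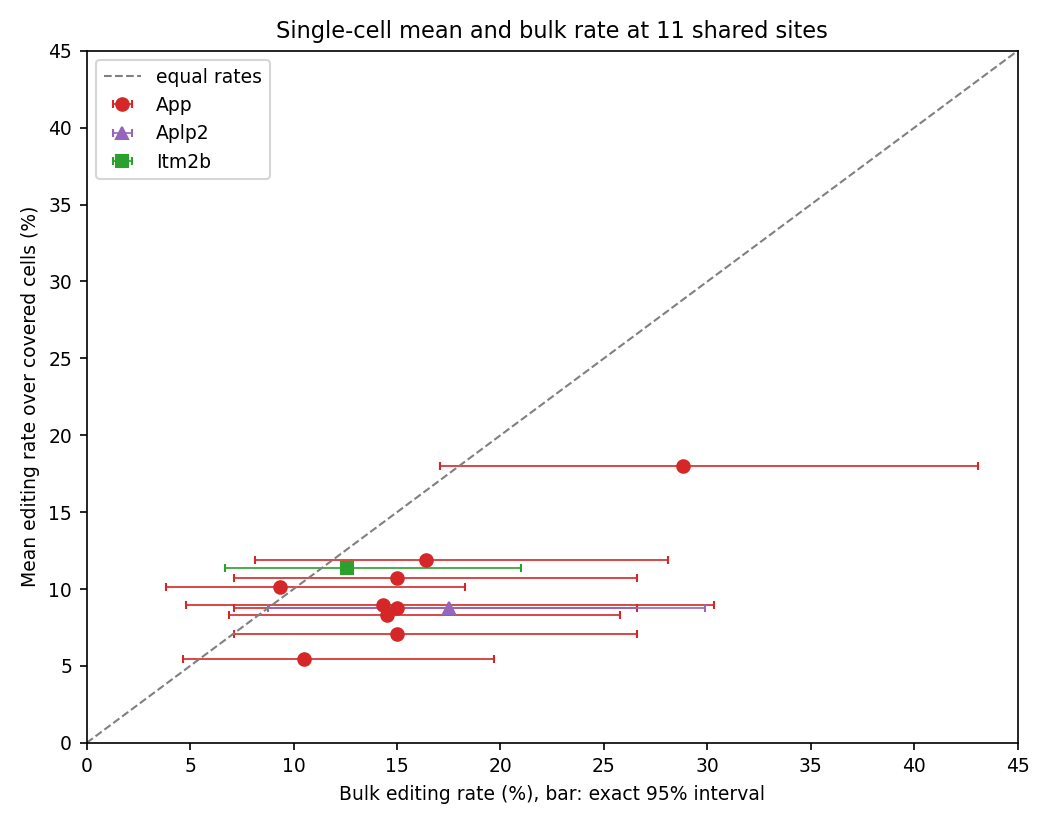
Mean editing rate over covered single cells (vertical axis, percent) against the bulk rate (horizontal axis, percent, bars for the exact 95% interval) at the 11 sites in both lists. Points lie below the line of equal rates except App +552, at 10.1% over cells against 9.33% in bulk.

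At the 11 sites in both lists, the mean over cells was lower than the bulk rate at 10 and higher at 1, a share like that of all 55 shared sites, where it was lower at 51 (92.7%). Dividing each mean over cells by the rate in bulk gave a median ratio of 0.622 (0.472 to 1.08), beside 0.583 (0.242 to 1.25) at all of them. The mean was 18% over cells and 28.8% in bulk at App +818, which was highest in both kinds of library among the shared sites. It was 7.09% over cells and 15% in bulk at App +600, the lowest ratio. Itm2b +393 had nearly the same value in both, 11.4% over cells and 12.6% in bulk. At 10 of the 11 sites the mean over cells lay inside the 95% interval of the bulk rate, beside 40 of all 55 shared sites (72.7%), with no test of that difference, and App +600 was the exception, at 7.09% over cells against a lower bound of 7.1%. Cells weigh equally in this mean whatever their depth, and bulk sites had to pass a filter near an editing rate of 10%, so the ratio compares listed values and has no test.

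Cells that were high at App +818 included columns 11, 19 and 24, each at 50%, which was above the upper bound of the bulk interval there (43.1%). That bound covers counting error of the bulk rate and not the spread of cells. The reads behind a rate in a cell are unknown and may be few, so no cell is shown to differ from bulk. The number of cells above that bound at each shared site of the 4 genes was 2 to 5. The same count was not made over all 55 shared sites, so it does not set these genes apart. At the site with most such cells in App, App +552, 5 of 23 covered cells were above 18.3% and 13 were at 0.

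Whether App sites are edited together in a cell was described by the Spearman correlation over cells covered at both sites. The pairs share cells, and near ones share reads, so no p is given. Among 19 pairs within 100 nucleotides the median was 0.01 (-0.38 to 0.345), and among 86 pairs farther apart it was 0.06 (-0.48 to 0.624). App +598 and App +600, whose sequence is shown above as a single window, had a correlation of 0.119 over 23 cells. Both were edited in 5 cells, only App +598 in 7, only App +600 in 3 and neither in 8. In column 6 App +598 was at 38.5% with App +600 at 0, and in column 1 they were at 5.26% and 27.8%.

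The highest correlation was 0.624, between App +99 and App +307, which lie 208 nucleotides apart, over 22 cells. Every cell edited at App +307 and covered at both was also edited at App +99, 5 cells in all. At the other end, App +537 and App +655 had a correlation of -0.48 over 22 cells, with 0 cells edited at both, 6 edited only at App +537 and 9 only at App +655. Pearson's correlation was 0.672 for the first pair and -0.3 for the second. Both are extremes picked from 105 pairs over few cells and are given as a description.

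**Figure D4:**
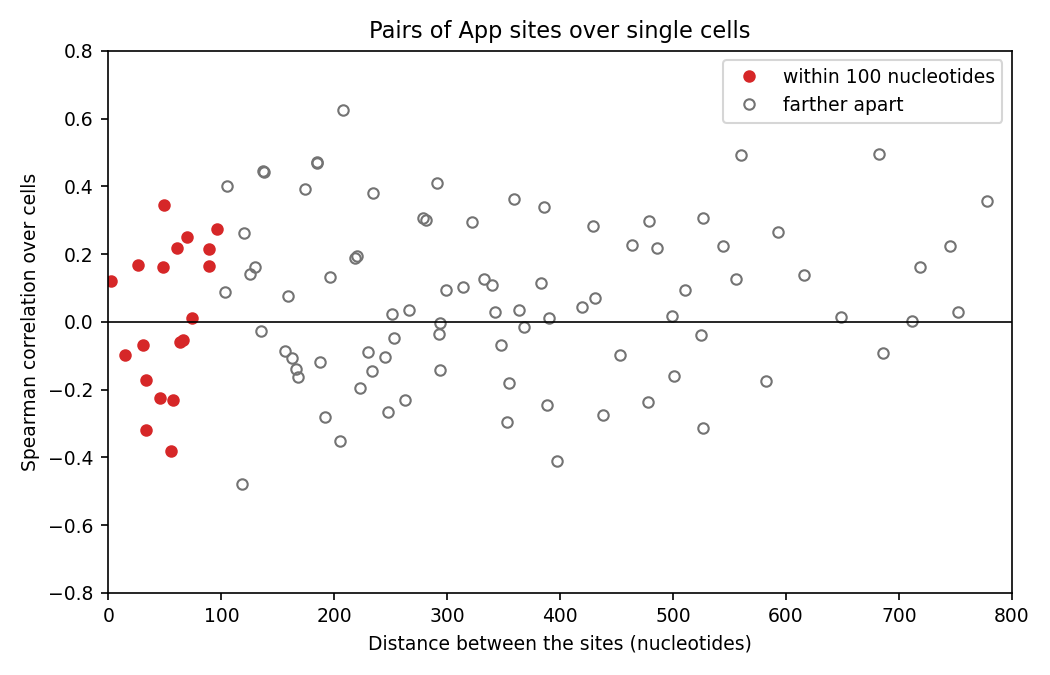
Spearman correlation over cells for each of the 105 pairs of App sites (vertical axis) against the distance between them in nucleotides (horizontal axis). The 19 pairs within 100 nucleotides (filled) run from -0.38 to 0.345, inside the range of the 86 farther pairs (open).

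Between genes, the App and Itm2b means per cell had a Spearman correlation of 0.464 (Pearson 0.503) over 24 cells, which was 0.39 without column 22 and 0.402 without column 4, settings also chosen after the values were seen. All 18 cells edited at Itm2b were edited at App, a gene with more sites. Since App was edited in 23 of the 24 cells, this overlap was nearly fixed in advance and adds nothing to the correlation. Depth per cell, which both genes share, is unknown, and its part was not tested. App and Aplp2 had -0.222 and Itm2b and Aplp2 -0.209, each over 17 cells. With the mean of all listed sites outside the 4 genes, the Spearman correlation for App was 0.144 (Pearson 0.374) over 24 cells. For Itm2b it was 0.247 (Pearson 0.153) over 24 cells, and for Aplp2 -0.146 (Pearson -0.0316) over 17 cells.

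The genes most like each by Spearman correlation over at least 15 shared cells were taken from the single-cell list. For App these were Arl8b at 0.529 (21 cells), which encodes a small GTPase of lysosome movement, Zfp367 at 0.492 (16 cells) and Itgb2, an integrin beta chain of leukocytes, at 0.471 (23 cells), among 76 genes with a median of 0.02. For Itm2b they were a site shared by the Ugt1a genes at 0.577 (19 cells), Arl8b at 0.496 (21 cells) and the Golgi GTPase gene Arf4 at 0.474 (18 cells). For Aplp2 they were Ostf1 at 0.49 (17 cells), Gatm at 0.488 (15 cells) and the splicing regulator gene Mbnl1 at 0.457 (17 cells), among 58 genes. Arl8b stood among the 3 for both App and Itm2b. These are the tops of long rankings over few cells and are given as a description.

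**Figure D5:**
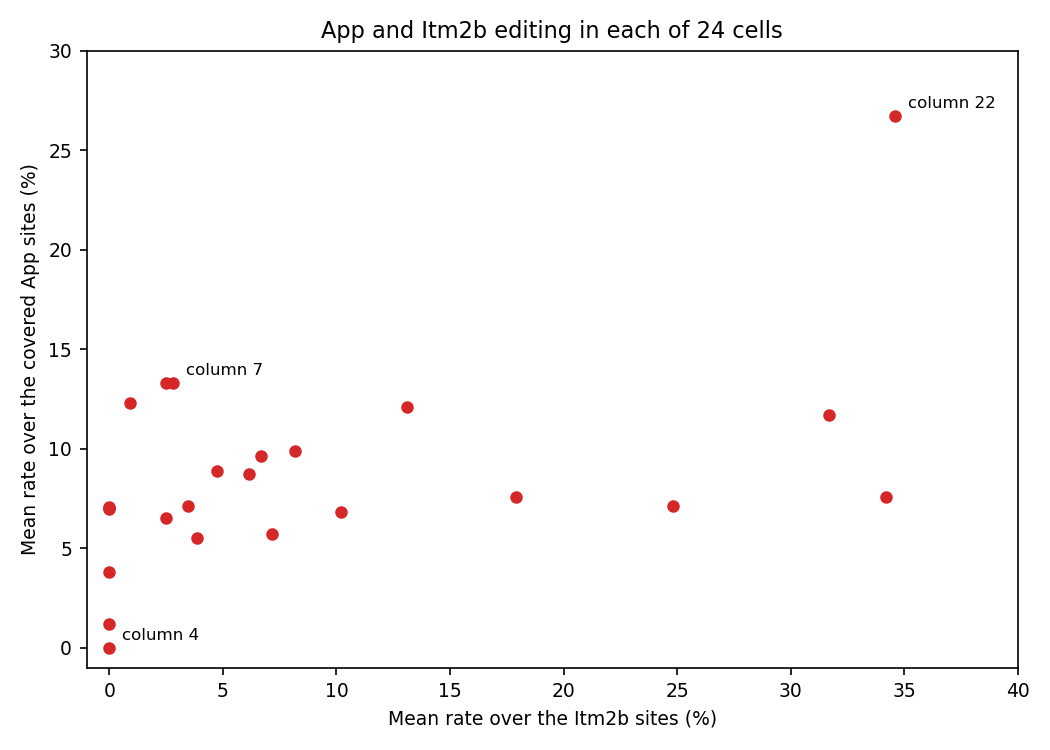
Mean rate over the covered App sites (vertical axis, percent) against the mean over the 2 Itm2b sites (horizontal axis, percent) in each of the 24 cells. Column 22 lies highest on both axes, at 26.7% for App and 34.6% for Itm2b, and column 4 is at 0 on both.

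Of 45 genes related by family, processing or binding, such as the secretases, their cofactors, relatives of the 4 genes and known substrates, 3 had listed sites, all in bulk. They were metalloproteases able to shed membrane proteins: Adam9 with 4 sites, Adam17 with 4 and Adam10 with 2. Adam10, the main alpha-secretase of APP, was edited at 15.8% (3 of 19 reads, 3.38% to 39.6%) and 13% (3 of 23 reads, 2.78% to 33.6%). Adam17, which sheds TNF, had 12.5% to 13.8%, and Adam9 had 10.9% to 12.1%. All 10 sites lay in 3′ UTRs. The relatives Aplp1, Itm2a, Itm2c and Sppl2b, the beta-secretase genes Bace1 and Bace2, and the SPPL2A substrates Cd74 and Tnf had no listed site. Absence from the lists does not show that they were unedited, since a site had to be covered and pass the filters.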

How the data were processed

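The authors trimmed reads of 100 nucleotides with Trim Galore 0.2.5, kept unique TopHat2 alignments to mm10 and discarded duplicates using Picard. Bulk sites came from the authors' comparison of base counts of wild-type and knockout RNA, as vectors with a magnitude of at least 15 and an angle of at least 0.11 radians, outside dbSNP variants, repeats and the edges of splice junctions. The deposited counts are reads covering a site in the wild-type library. The deposited editing rate is a fraction of those reads, and the single-cell rates are fractions per cell, without depth. Rates are printed as percent.

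Edited reads were computed as depth times rate, which was whole within 0.001 reads at 410 of 410 sites. Sites were matched by chromosome and position, and the strand was read from the reference base. Intervals are exact Clopper-Pearson 95% intervals. Uncovered cells were left out of means. Fisher's exact tests ran in SciPy 1.17.1, with NumPy 2.4.6, pandas 2.3.3, pysam 0.24.0 and Python 3.11.15, plots in matplotlib 3.10.9, and the pair test was tested on simulated data. Simulated reads were drawn independently at each site, unlike near sites that can share reads, and their outcome is not used here. The members, gene lists and alternatives were chosen with earlier results of these data known. Named were all sites of the 4 genes, related genes with a listed site and, for each gene with single-cell sites, the 3 genes most like it over at least 15 cells. Alternatives varied depth, adjustment, test, threshold, sites, treatment of uncovered cells, correlation measure and cells left out.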

Additional observations from a re-analysis of the deposited data

How the results depend on the processing

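Each of 202 alternative values for 18 results was set against a limit. The limit was the SD over cells, over shared sites or over App site pairs, the counting interval, or 1.5 times the main value. Most alternatives left out 1 cell, which can hardly move a mean or median by 1 SD, so staying inside says little there. Asking for at least 30 reads removed no bulk site of App, Aplp2 or Itm2b. A median over cells of 0 for Aplp2, against a mean of 8.78%, counted as inside. With these limits 197 values stayed inside and 5 did not. The bulk rate of Sppl2a was 11.8% without its higher site, against 32.2% pooled. The number of listed single-cell sites with a covered cell at 0 and a cell above 50% was 8, and it was 16 with the limit at 40% and 3 at 60%, beside 117 and 60 of all 171 sites. Leaving out each cell in turn gave 4 to 8, the lowest without column 22. Of the 3 genes most like App, 1 was kept with Pearson's correlation. The count of site pairs of the 4 genes that differ in bulk was 0 under each alternative, where the smallest adjusted p was 0.0587 to 1. Over all genes it was 7 of 231 for pairs over 100 nucleotides apart, 9 of 211 with at least 30 reads, 9 of 318 with Bonferroni adjustment and 14 of 318 with a chi-square test. At an unadjusted p below 0.05 the 4 genes had 7 of 47 pairs, beside 23 of 231 over all genes, when over 100 nucleotides apart, 6 of 68, beside 19 of 211, with at least 30 reads, and 7 of 69, beside 33 of 318, with a chi-square test. With cells left out in turn, the mean over cells was 7.83% to 8.99% for App, 6.2% to 9.33% for Aplp2 and 7.87% to 9.37% for Itm2b, and the median ratio of cells to bulk was 0.532 to 0.649. The median correlation of near App pairs was -0.04 to 0.13, so its sign depends on the cells kept, and that of farther pairs was 0.04 to 0.08. Depth limits the bulk rates to exact 95% intervals at least 14.3 percentage points wide at each site, and none can be given for a cell.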
